A study of Mus musculus with 12 samples.

Results

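The islets of leptin-deficient mice that also lack PPARγ2 (POKO) were compared with islets of lean mice that lack only PPARγ2 (PPARγ2KO), so that the ob mutation of leptin is the allele that differs and the PPARγ2 deletion is shared. The members are the 3 arrays labelled DKO and the 3 labelled PPARg2KO, 6 of the 12 arrays of the study, and all 41174 probes of the array were tested. The remaining arrays are 3 of ob/ob islets, which carry the ob mutation with PPARγ2 intact, and 3 of wild-type (WT) islets. The study set these genotypes against each other in pairs, at an early age, to look for genes tied to the expansion of the β-cell mass. The labels give a mixed C57BL/6 and Sv129 background, chow feeding and an age of 4 weeks for all groups, while the text of the study gives 5 weeks and female mice. Each array holds RNA pooled from several mice, so the spread between arrays is that between pools. PPARγ2 and leptin are missing in the whole animal, and the islets were hand-picked and kept in culture overnight before RNA extraction.

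Leptin is a hormone of fat tissue that lowers food intake through its receptor in the hypothalamus, and mice without it become obese and insulin resistant, with larger islets that secrete more insulin. PPARγ2 is the fat-cell form of a nuclear receptor that switches on genes of lipid storage, and it appears in other tissues, β-cells among them, when they are overloaded with lipid. The islet holds insulin-producing β-cells, glucagon-producing α-cells and somatostatin-producing δ-cells, which keep their peptides in dense-core granules together with granins and neuropeptides, beside vessels, nerves and resident macrophages.

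The median processed signal was at least 31.6 on every POKO array and at most 30.4 on every PPARγ2KO array, the share of spots well above background was 61.4 to 61.5% and 57.1 to 60.9%, and no spot was saturated. Signals below are quantile-normalized log2 values, listed for replicates 1, 2 and 3, and the number of arrays limits their precision. The islet hormone genes Ins1, Ins2, Gcg and Sst were well above background on every array. Acinar genes were bright as well (26 with a probe), with a summed linear signal of 5193300 to 5435530 in POKO and 4987440 to 5582080 in PPARγ2KO. The brightest of them, such as Sycn, stood at the top of the scale. Quantile normalization leaves little room to differ there, so these sums cannot show that acinar content was alike. Lep was not well above background on any array, so its probe could not check the ob label. The Pparg probe (NM_011146), whose place relative to the deleted part is not given in the sources used here, read 6.41, 7.11 and 7.14 in POKO and 7.44, 7.27 and 6.60 in PPARγ2KO (adjusted p = 0.849), against 8.54 to 9.77 in ob/ob and 8.85 to 8.98 in WT. All 6 arrays compared here lay below every array with intact PPARγ2. Some arrays stood apart from their group. PPARγ2KO replicate 2 was high for lymphocyte and MHC class II genes, and POKO replicate 2 was high for granulocyte genes. PPARγ2KO replicate 3 was high for endocrine genes, and so was WT replicate 3 of the same slide. For glucose sensing and insulin secretion genes their summed signals were 182137 and 219490, against 74426 to 116549 on the other PPARγ2KO and WT arrays. POKO replicate 3 on that slide was the lowest POKO array (144613). The part of the slide in this was not tested. In such bulk samples fewer cells of a type and less RNA per cell cannot be told apart.

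At an adjusted p of at most 0.2 and an absolute log2 difference of at least 1, the limits of a call throughout, 52 probes rose in POKO (0.126% of all probes) and 35 fell (0.085%). The rises cover 34 named genes and the falls 18, and 32 called probes carry no gene name here. By its brightest probe, 0.237% of the 17305 named genes passed. Among the rises were Cartpt and Scg2 of the endocrine granule, the coagulation factors F10 and F7, the retinoic acid enzymes Aldh1a3 and Cyp26b1, and genes active in white blood cells such as Fcgr3 and Csf1r. Among the falls were the potassium channel gene Kcnj12 and the neuronatin gene Nnat. Without the fold limit 172 probes passed. The called probes did not overlap between the groups (22.4% of all probes did not), which by itself fixes the same sign on each of the 3 slides. Each slide carried 1 array per genotype. The count was unstable: it was 637 without PPARγ2KO replicate 2, 1316 without PPARγ2KO replicate 3 and 17 without PPARγ2KO replicate 1, and 23, 47 and 39 without POKO replicates 1, 2 and 3. With each array scaled to its 75th percentile instead, there were 57 risen and 13 fallen probes, and with normexp background correction 11 and 0. Position on the slide was the same for all arrays of a genotype, so position and genotype cannot be told apart.

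**Figure D1:**
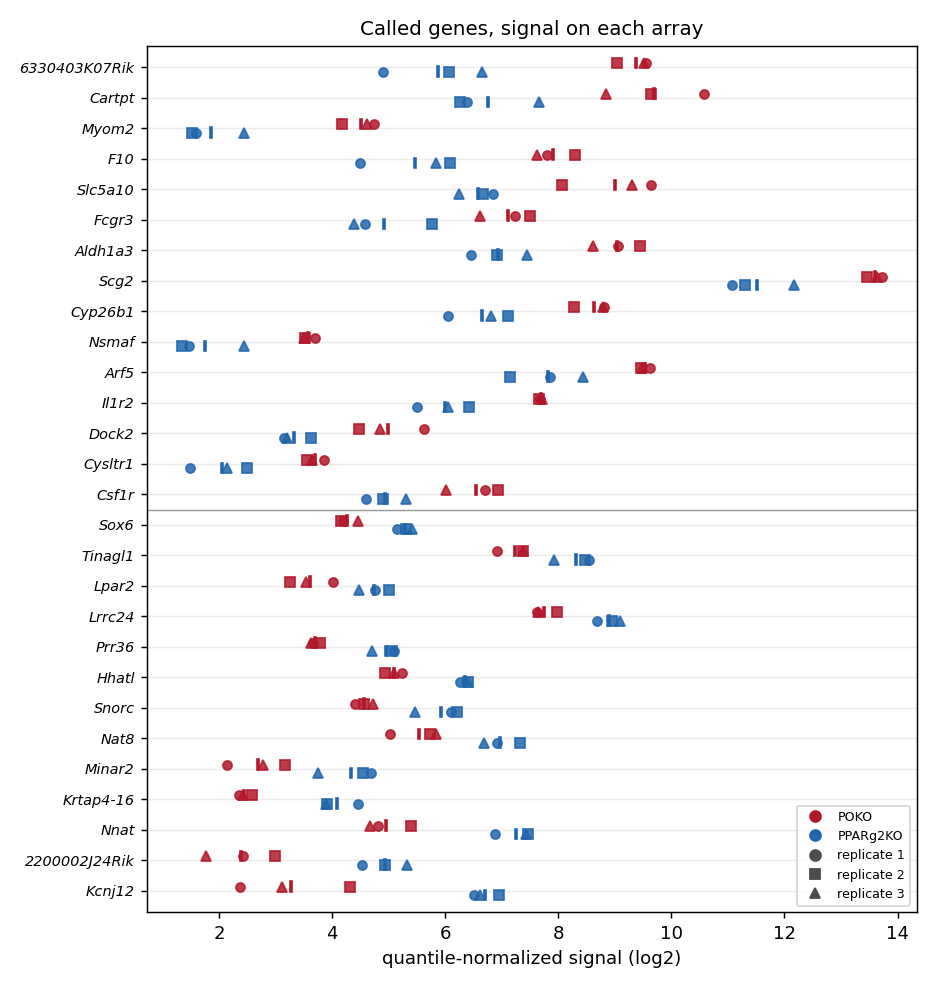
Quantile-normalized log2 signal (x axis) of the 15 largest rises and the 13 falls among named called genes that were well above background in the brighter group (y axis), with 1 point per array, POKO in red, PPARγ2KO in blue, the marker giving the replicate and the short bar the group mean. The choice required that a gene not overlap between the groups, and the widest gaps are those of 6330403K07Rik and Kcnj12.

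The largest named rise with a known role was Cartpt, which encodes the CART peptide of islet endocrine cells and nerves. Its promoter is shown with those of Scg2 and Chgb, because these are the members of the list of islet neuropeptides and granins whose promoters hold the cyclic AMP response element TGACGTCA, which reads the same on both strands. Of the 22 members with a probe 19 had a promoter window (250 bases before to 50 after the start, RefSeq, GRCm38.p6). In 3 of these 19 genes a window held the element, against 1.79% of all 32851 windows. The first share is per gene and the second per window, so they are not strictly alike. Of each window the 150 bases up to the base before the transcript start are printed 5′ to 3′ on the strand of the gene, with the element in capitals. The match is a description and no sign of binding.
Cartpt, chr13:99900684-99900833, minus strand: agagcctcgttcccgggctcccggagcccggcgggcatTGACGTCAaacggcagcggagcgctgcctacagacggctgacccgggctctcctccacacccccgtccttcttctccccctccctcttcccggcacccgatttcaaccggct
Scg2, chr1:79440027-79440176, minus strand: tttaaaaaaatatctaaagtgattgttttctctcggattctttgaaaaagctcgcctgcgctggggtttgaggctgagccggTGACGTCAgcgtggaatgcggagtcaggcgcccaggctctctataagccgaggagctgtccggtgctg
Chgb, chr2:132781492-132781641, plus strand: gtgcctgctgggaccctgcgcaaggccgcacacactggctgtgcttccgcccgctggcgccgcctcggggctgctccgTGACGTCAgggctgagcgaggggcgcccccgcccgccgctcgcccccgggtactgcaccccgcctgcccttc

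Cartpt (NM_013732) had signals of 10.59, 9.63 and 8.85 in POKO and 6.38, 6.26 and 7.66 in PPARγ2KO. All POKO arrays lay above all PPARγ2KO arrays, with a log2 difference of 2.92 ± 0.49 (SE, adjusted p = 0.152, limma), and its second probe gave 2.88. Scg2 (NM_009129), which encodes the granule matrix protein secretogranin II, had 13.72, 13.47 and 13.63 against 11.07, 11.29 and 12.17, a difference of 2.09 ± 0.41 (adjusted p = 0.188). Chgb, which encodes chromogranin B, read 16.70, 16.80 and 16.29 against 15.02, 15.24 and 15.95 and was not called (1.19 ± 0.35, adjusted p = 0.301). The POKO arrays were again the higher ones throughout. Cck, the precursor of cholecystokinin, was another uncalled member with a wide gap (12.25, 12.21 and 11.63 against 9.07, 9.48 and 9.82, a difference of 2.57, adjusted p = 0.22).

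Of the 22 neuropeptide and granin genes with a probe, 2 rose by the call (Cartpt and Scg2), and 7 were higher and 1 lower at an unadjusted limma p below 0.05, where 5.58% of all named genes were higher and 7.3% lower. Signals were higher in POKO in 14 of these genes and lower in 8. Their median log2 difference was 0.53 (all named genes -0.03), and 0.65, 0.22 and 0.14 on slides 1, 2 and 3. The higher ones outside the call were Cck, Grp (2.40), Chgb, Gast (0.87) and Tac1 (0.87), which encode cholecystokinin, gastrin-releasing peptide, chromogranin B, gastrin and substance P. The lower one at that limit was Ucn3, which encodes urocortin 3 of mature mouse β-cells. Trh (-0.91) and Gal (-0.75) were among those lower without passing it. Ucn3 read 6.48, 6.98 and 6.00 in POKO and 8.69, 7.77 and 8.50 in PPARγ2KO (-1.83 ± 0.66, adjusted p = 0.366). Without PPARγ2KO replicate 3, the array with high endocrine genes, 6 members rose and 1 fell by the call, and the median was 0.62, in a fit where 757 probes rose and 559 fell in all.

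The hormone genes themselves differed little, apart from somatostatin. Sst, the hormone of δ-cells, read 15.39, 14.83 and 14.58 in POKO and 15.79, 16.23 and 16.28 in PPARγ2KO. The groups did not overlap, but the difference of -1.17 ± 0.34 was not called (adjusted p = 0.293). Ins1 (0.16 ± 0.28), Ins2 (0.02 ± 0.06) and Gcg (0.01 ± 0.09) stood at the top of the scale on every array, where quantile normalization leaves little room to differ. Ppy of the pancreatic polypeptide cell read 15.29, 15.29 and 15.05 against 15.66, 15.80 and 15.74 (-0.53, adjusted p = 0.522), and Pyy (-0.05) and Ghrl (-0.23) overlapped between the groups.

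Among the transcription factors of β-cells 16 of 21 had lower signals in POKO, 0 were called and 4 were lower at an unadjusted limma p below 0.05 (median -0.29), where 9437 of all 17305 named genes were lower. The median was -0.06, -0.14 and -0.53 on slides 1, 2 and 3, so it was lowest on the slide of PPARγ2KO replicate 3, and without that array it was -0.20. Among these were Hnf4a (-0.90, adjusted p = 0.254), Pdx1 (-0.77, adjusted p = 0.328) and Sox9 (-0.51). Pdx1, which drives insulin transcription, read 6.53, 6.81 and 6.40 in POKO and 7.14, 7.42 and 7.51 in PPARγ2KO. Sox9 is also a duct gene, and Krt19 of the duct list was lower as well (-0.58, adjusted p = 0.442). The brightest factors of the list, Foxa2 (-0.02) and Nkx6-1 (0.02), overlapped between the groups.

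In glucose sensing and insulin secretion (25 genes), 0 were called, 5 were lower and 1 higher at an unadjusted limma p below 0.05. The list had no common direction, with 13 genes higher, 12 lower and a median of 0.01. Its median was 0.09 and 0.25 on slides 1 and 2 and -0.55 on slide 3, which carries PPARγ2KO replicate 3, and without that array 2 genes were lower and 2 higher at that limit (median 0.18). Slc2a2, the glucose transporter GLUT2, read 6.72, 6.09 and 5.93 in POKO and 7.59, 7.28 and 8.25 in PPARγ2KO (-1.46 ± 0.50, adjusted p = 0.349). The other lower ones were Gipr (-0.97), the receptor of an incretin hormone, and Sytl4 (-0.90), Vamp2 (-0.80) and Stx1a (-0.70) of granule docking and fusion. Cpe, the carboxypeptidase that trims prohormones, read 15.40, 15.18 and 15.07 against 13.95, 14.02 and 14.39 and was the higher one (1.09 ± 0.35, adjusted p = 0.321).

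**Figure D2:**
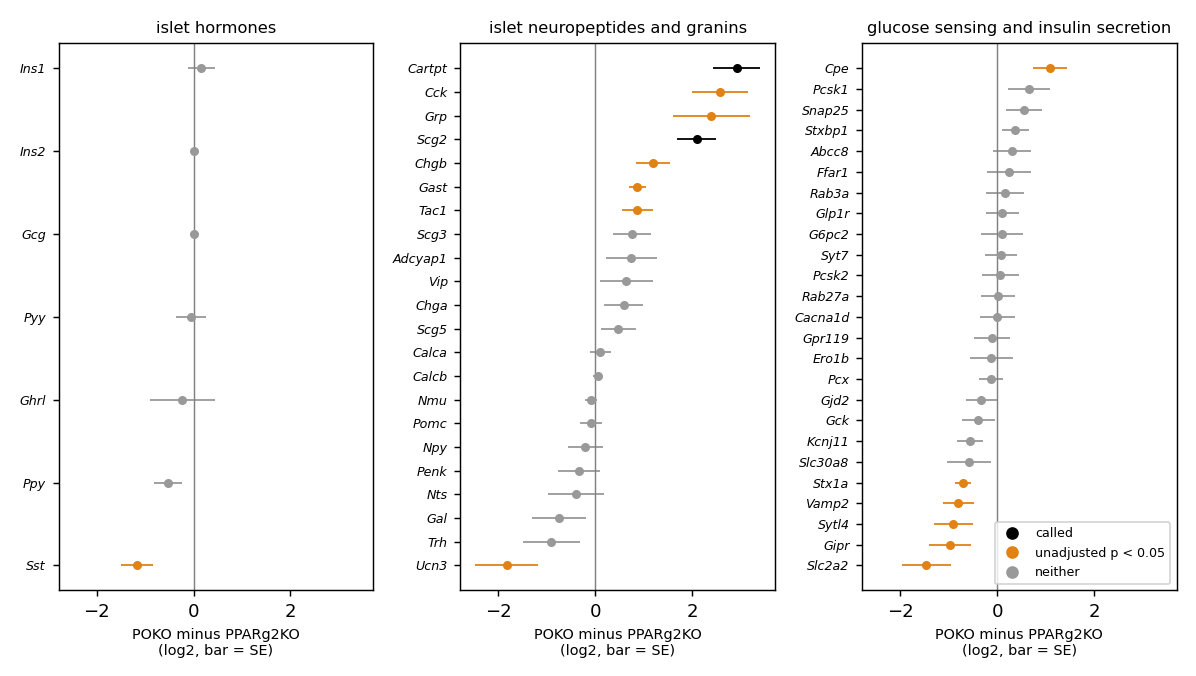
Log2 difference between POKO and PPARγ2KO (x axis, bars give the SE) for every member with a probe of 3 lists (hormones, neuropeptides and granins, glucose sensing and insulin secretion), in black where called, in orange at an unadjusted limma p below 0.05 and in grey otherwise. Cartpt and Scg2 are the called members, at 2.92 and 2.09, while Ucn3 and Slc2a2 lie at -1.83 and -1.46.

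An enzyme that makes retinoic acid and one that degrades it both rose. Aldh1a3 (NM_053080), which makes retinoic acid and belongs to the genes that mature β-cells keep low, had 9.05, 9.45 and 8.62 in POKO and 6.45, 6.91 and 7.46 in PPARγ2KO, a difference of 2.10 ± 0.31 (adjusted p = 0.129). Cyp26b1 (NM_175475), which degrades retinoic acid, had 8.80, 8.28 and 8.79 against 6.05, 7.11 and 6.81 (1.97 ± 0.41, adjusted p = 0.198). Both genes were separated by more than 1 log2 unit between the nearest arrays of the groups. Of the 24 genes on the list that β-cells keep low, Aldh1a3 was the one called. Arhgdib (1.75) and Hk3 (1.13), both active in white blood cells, were higher at an unadjusted limma p below 0.05, and the median of the list was 0.06. These retinoic acid genes were singled out after their values were seen.

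Other large rises had varied roles. 6330403K07Rik (NM_134022) had 9.55, 9.04 and 9.52 in POKO and 4.90, 6.07 and 6.65 in PPARγ2KO, the largest called rise (3.50 ± 0.54, adjusted p = 0.132). F10, coagulation factor X, had 7.81, 8.30 and 7.63 against 4.49, 6.09 and 5.83 (2.44 ± 0.43, adjusted p = 0.152), and F7, coagulation factor VII, rose by 1.35 (adjusted p = 0.129). Slc5a10, a sodium-coupled sugar transporter, had 9.64, 8.06 and 9.30 against 6.84, 6.66 and 6.25 (2.42 ± 0.38, adjusted p = 0.132). In each of these genes the lowest POKO array lay above the highest PPARγ2KO array. Il1r2, the decoy receptor of interleukin 1, had 7.68, 7.66 and 7.72 against 5.51, 6.41 and 6.05 (1.70 ± 0.32, adjusted p = 0.178). Arf5, a small GTPase of vesicle traffic, had 9.62, 9.46 and 9.48 against 7.86, 7.15 and 8.43 (1.70 ± 0.25, adjusted p = 0.129). For both the POKO arrays lay within 0.2 log2 units of each other and the PPARγ2KO arrays were spread wider. Myom2, a muscle sarcomere gene, was not well above background on any PPARγ2KO array and lay at least 2.1-fold higher with the ob mutation (adjusted p = 0.191).

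Of the 35 fallen probes 18 carry a gene name, and 13 of these genes were well above background on all PPARγ2KO arrays. Kcnj12 (NM_010603), an inwardly rectifying potassium channel, had 2.37, 4.31 and 3.12 in POKO and 6.52, 6.96 and 6.62 in PPARγ2KO, the largest called fall (-3.43 ± 0.47, adjusted p = 0.118). It was well above background on 1 POKO array. Nnat (NM_010923), an imprinted gene whose product aids insulin processing in β-cells, had 4.81, 5.40 and 4.67 against 6.88, 7.47 and 7.43 (-2.30 ± 0.35, adjusted p = 0.132). Nat8, an acetyltransferase, had 5.03, 5.73 and 5.85 against 6.91, 7.32 and 6.69 (-1.43, adjusted p = 0.177). All POKO arrays were below all PPARγ2KO arrays in each. Tinagl1 (-1.08), an extracellular matrix protein, Sox6 (-1.02), a transcription factor, Lpar2 (-1.14), a receptor of lysophosphatidic acid, and Snorc (-1.37), Hhatl (-1.27), Prr36 (-1.27) and Lrrc24 (-1.16) fell by less. 2200002J24Rik, which was not well above background on any POKO array, was at least 3.68-fold lower (adjusted p = 0.193), and Minar2 (at least 2.37-fold) and Krtap4-16 (at least 2.04-fold) were also dim in POKO. In the ion channel list Kcnj12 was the called member among 47, and 5 were lower and 0 higher at an unadjusted limma p below 0.05, among them Trpm5 (-1.92), Kcnq1 (-0.59) and Cacnb1 (-0.59).

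Genes active in white blood cells were also among the rises. Fcgr3 (NM_010188), an immunoglobulin receptor of macrophages, had 7.24, 7.50 and 6.61 in POKO and 4.59, 5.78 and 4.39 in PPARγ2KO (2.20 ± 0.45, adjusted p = 0.193). One probe of Csf1r, the growth factor receptor of macrophages, had 6.71, 6.93 and 6.02 against 4.60, 4.91 and 5.31 (1.61 ± 0.33, adjusted p = 0.193), and its brightest probe gave 1.01 and was not called. The groups did not overlap on either called probe. Vav1 (1.20), Lcp1 (1.26), Pik3r5 (1.33) and Elmo1 (1.48), which serve signalling and the cytoskeleton mostly in blood cells, rose too. Dock2, a regulator of leukocyte migration, was not well above background on any PPARγ2KO array and was at least 2.84-fold higher (adjusted p = 0.152). Cysltr1 (at least 1.19-fold) and Il7r (at least 1.2-fold), receptors of leukotrienes and interleukin 7, were near background.

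Most macrophage genes had higher signals in POKO. Of 23 genes with a probe 21 were higher, 1 was called (Fcgr3) and 13 were higher and 0 lower at an unadjusted limma p below 0.05, with a median of 1.14. The median difference was 1.79, 0.67 and 0.99 on slides 1, 2 and 3. Ctss (1.99 ± 0.48, adjusted p = 0.254), a lysosomal protease, and the complement genes C1qa (1.18) and C1qb (1.16) did not overlap between the groups. C1qa read 10.39, 10.20 and 9.57 against 8.72, 9.10 and 8.80. The summed linear signal of the list was 12836 to 20841 in POKO and 8116 to 12702 in PPARγ2KO, so the highest PPARγ2KO array lay just under the lowest POKO array. Cd14 (-0.08) was a bright member that did not follow. Without PPARγ2KO replicate 2 the counts were 6 called and 18 at an unadjusted limma p below 0.05, with a median of 1.68, in a fit that called 464 probes higher in all. Without PPARγ2KO replicate 1 they were 0 and 7, with a median of 0.92.

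The lymphocyte genes separated 2 of the 3 PPARγ2KO arrays from POKO, not the third. The T cell list (29 genes) had a median of 1.30 with 10 genes higher at an unadjusted limma p below 0.05, the B cell list (22 genes) 2.06 with 5, and the MHC class II list (13 genes) 1.61 with 4, and none of these genes was called. Cd79b of the B cell receptor read 11.31, 10.24 and 9.72 in POKO and 4.54, 10.99 and 5.90 in PPARγ2KO (3.28 ± 1.39, adjusted p = 0.435). Cd2 of T cells read 6.78, 5.30 and 6.19 against 1.20, 6.64 and 1.78 (2.88 ± 1.19, adjusted p = 0.429). Cd74, the invariant chain of MHC class II, read 12.65, 12.26 and 11.42 against 9.72, 12.14 and 9.60 (1.62 ± 0.63, adjusted p = 0.403). In all of them PPARγ2KO replicate 2 lay among the POKO arrays, and on slide 2 the medians of the lists were -0.92, -0.76 and -0.47. The summed signal of the T cell list was 2714 to 5639 in POKO and 1254 to 4264 in PPARγ2KO, and that of the B cell list 3777 to 8501 and 1696 to 7123. Without PPARγ2KO replicate 2, 14 T cell, 14 B cell and 11 MHC class II genes rose by the call. The list medians were then 1.84, 3.23 and 2.54, in a fit where 464 probes rose in all. That array was the PPARγ2KO array highest for these lists, so leaving it out widens their difference by itself. The granulocyte list (20 genes, median 0.84) rested in part on POKO replicate 2, whose summed signal was 8542 against 905 and 1400 on the other POKO arrays and 233 to 866 in PPARγ2KO.

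**Figure D3:**
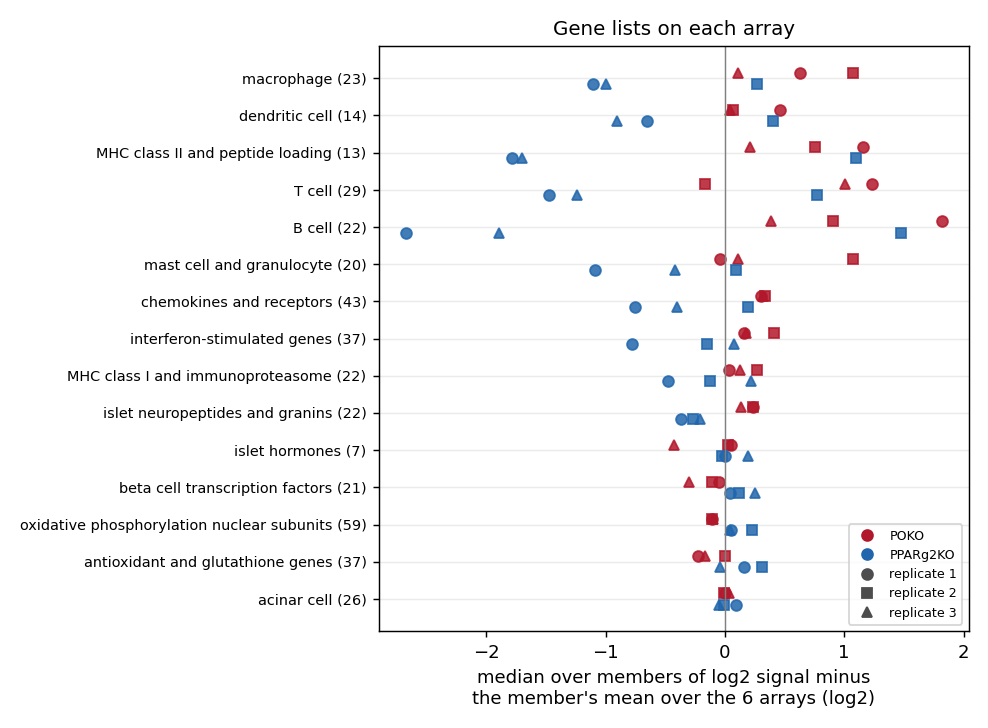
Median over the members of each gene list (y axis, number of members in brackets) of the log2 signal minus the member's mean over the 6 arrays (x axis), with 1 point per array, POKO in red and PPARγ2KO in blue, the marker giving the replicate. For the B cell list the POKO arrays lie at 1.82, 0.91 and 0.39 and the PPARγ2KO arrays at -2.67, 1.47 and -1.89. The acinar list, whose brightest members stand at the top of the scale, stays within 0.1 of 0 on every array.

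Interferon-stimulated genes were higher in POKO in 34 of 37 cases, 1 was called and 13 were higher and 0 lower at an unadjusted limma p below 0.05 (median 0.52). The median was 0.93, 0.70 and -0.03 on slides 1, 2 and 3, and the summed signal of PPARγ2KO replicate 3 (48272) lay above that of POKO replicates 1 and 3 (46703 and 46210). Ifit2, which restrains translation of viral RNA, was the called one, with 7.83, 7.47 and 7.40 in POKO and 5.54, 6.25 and 6.56 in PPARγ2KO (1.45 ± 0.27, adjusted p = 0.17), and its second probe was called at 1.24. Gbp6 (1.11, adjusted p = 0.22) and Igtp (0.95), which are induced GTPases, and Irf1 (0.58), a transcription factor of the interferon response, also did not overlap between the groups. Of 43 chemokine and receptor genes 12 were higher and 2 lower at that unadjusted limit (median 0.75, 0 called). Over all named genes 5.58% were higher and 7.3% lower at it. Ccl5 read 12.50, 13.12 and 12.54 against 10.39, 11.70 and 11.36 (1.57 ± 0.40, adjusted p = 0.26), and Ccl2, which draws monocytes, 12.24, 12.32 and 12.20 against 11.04, 11.80 and 11.61 (0.77 ± 0.20, adjusted p = 0.263). Ccl25 (-0.51) and Ccl27a (-1.35) were the lower ones. Without PPARγ2KO replicate 2, 8 interferon-stimulated and 13 chemokine and receptor genes rose by the call, in a fit where 464 probes rose in all. Without PPARγ2KO replicate 1, 0 interferon-stimulated genes did and 4 were higher at an unadjusted limma p below 0.05 (median 0.36). Each list was also read as the median of its members' signals minus their means over the compared arrays. Among PPARγ2KO replicates 1, 2 and 3 the chemokine and receptor list (-0.75, 0.19 and -0.40) was highest on replicate 2. The macrophage list (-1.10, 0.27 and -0.99), the T cell list and the B cell list were highest there too. The interferon-stimulated list (-0.78, -0.15 and 0.08) was instead highest on replicate 3. The part of macrophages and lymphocytes in these results was not tested.

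Genes of oxidative phosphorylation were slightly lower in POKO. Of 59 nuclear-encoded subunits 53 had lower signals, 27 of them at an unadjusted limma p below 0.05 and 0 higher, with 0 called. The median was -0.21, and it stayed between -0.40 and -0.16 in every alternative tried. Atp5k of the ATP synthase read 11.31 or less in POKO and 11.83, 12.05 and 11.67 in PPARγ2KO (-0.66 ± 0.13, adjusted p = 0.193), within the limit on p but not on fold. Ndufs8 of complex I read 9.50, 9.53 and 9.40 against 10.07, 10.04 and 9.70 (-0.46 ± 0.10, adjusted p = 0.22). Both genes kept the groups apart by a small margin. Cox6b1 (-0.68) and Cox6c (-0.50) of complex IV and Sdhc (-0.42) of complex II were lower as well, whereas Atp5b (0.00) and Sdha (0.21) were not. Without PPARγ2KO replicate 2, the array highest for this list, 17 of the 59 were lower at an unadjusted limma p below 0.05 and the median was -0.16. In ob/ob against WT the median of the list was 0.06, and the smallest adjusted p for a difference between the comparisons was 0.221.

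**Figure D4:**
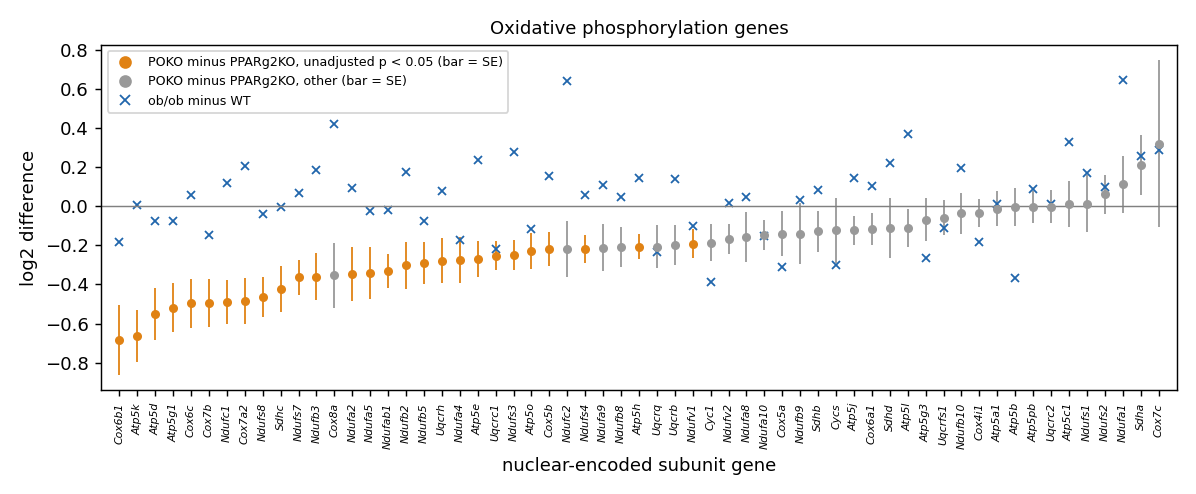
Log2 difference (y axis) of the 59 nuclear-encoded oxidative phosphorylation genes (x axis, ordered by value) between POKO and PPARγ2KO as points with SE bars, in orange at an unadjusted limma p below 0.05, and between ob/ob and WT as blue crosses. The POKO points run from -0.68 to 0.32 with 53 below 0, and the crosses scatter around a median of 0.06.

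Antioxidant and glutathione genes were lower in 30 of 37 cases, where 9437 of all 17305 named genes were lower. At an unadjusted limma p below 0.05, 7 were lower and 1 higher, with 0 called and a median of -0.30. The median was -0.43, -0.33 and -0.07 on slides 1, 2 and 3. The summed signal of PPARγ2KO replicate 3 (376188) lay within the POKO range (364150 to 478898). Gstp1, a glutathione transferase, read 16.00, 16.45 and 16.06 against 16.72, 16.77 and 17.04 (-0.67, adjusted p = 0.322), and Gpx2 (-0.84), Gstm2 (-0.69), Prdx3 (-0.40), Prdx1 (-0.39) and Gpx1 (-0.33) were lower too. Nfe2l2, which encodes the regulator NRF2, was the higher one (0.48, adjusted p = 0.383).

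Of 29 genes on a list of β-cell expansion in pregnancy and obesity, 0 were called, 5 were higher and 1 lower at an unadjusted limma p below 0.05. At that limit 5.58% of all named genes were higher and 7.3% lower. Several of its genes come from earlier work and are named by the study for their levels in these same islets, so their direction is no independent evidence. Tnfrsf11b, the osteoprotegerin gene, read between 7.96 and 8.14 in POKO and 6.62, 7.30 and 6.96 in PPARγ2KO (1.07 ± 0.27, adjusted p = 0.254). Ffar2, a receptor of short-chain fatty acids, read 9.57, 9.71 and 9.35 against 8.11, 8.70 and 9.05 (0.92, adjusted p = 0.302), and the proliferation marker Mki67 7.99, 7.52 and 7.06 against 6.51, 6.74 and 6.82 (0.83, adjusted p = 0.365). The POKO arrays were the higher ones in these 3 genes. Other genes named by the study moved less. Across the alternatives Ccna2 lay between -0.01 and 0.44, Ccnb1 between -0.08 and 0.47 and Birc5 between -0.04 and 0.38. Ccnd3 lay between -0.18 and -0.04. Of 49 cell cycle genes 6 were higher and 0 lower at an unadjusted limma p below 0.05, among them Ccnb2 (0.76) and E2f1 (0.40). The median was 0.21, with 0.38, 0.02 and 0.08 on slides 1, 2 and 3. In the leptin signalling list 3 of 18 genes were higher and 0 lower, Socs3 (0.83, adjusted p = 0.338), Jak2 (0.54) and Stat5a (0.19). Socs3, the feedback inhibitor of the leptin receptor, read 13.06, 12.78 and 12.93 against 11.85, 11.74 and 12.70.

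In the other lists no gene was called. The dendritic cell list (14 genes) had 6 higher and 0 lower at an unadjusted limma p below 0.05, where 5.58% of all named genes were higher. Its median was 0.60, but -0.14 on slide 2, which carries PPARγ2KO replicate 2. MHC class I genes (22) had 4 higher and 0 lower. The remaining lists had few members past this limit. The PPAR and RXR targets (48 genes) had 1 higher and 4 lower at an unadjusted limma p below 0.05, with Ucp2 (-0.67) and Lpl (-0.46) among the lower. ER stress genes (33) had 3 higher, led by Ppp1r15a (1.06, adjusted p = 0.36), and TGF-β genes (38) had 1, Inhbb (1.01, adjusted p = 0.262). The BCL2 and apoptosis list (28) had 4 higher and 1 lower, with Birc3 (0.64, adjusted p = 0.193) within the limit on p but not on fold and Bbc3, which encodes PUMA, at 0.91 (adjusted p = 0.264). Sterol and fatty acid synthesis (36) had 0 higher and 1 lower, and tight junctions and desmosomes (38) had 1 and 4. The erythroid list (12) had 2 higher and 1 lower, with Hba-a1 at 2.03 (adjusted p = 0.328). Medians of the acinar, duct, neural, endothelial, fibroblast, erythroid and adipocyte lists lay between -0.05 and 0.11. Those of muscle and of lymph node stroma were -0.15 and 0.27.

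The same mutation was read a second time by ob/ob against WT, which shares no array with POKO against PPARγ2KO but the same 3 slides. Both comparisons took the spread of a probe from the same fit over all arrays. A probe with little spread in ob/ob and WT was thus easier to call and easier to pass in ob/ob against WT. The shares of called probes at an adjusted p of at most 0.05 are therefore not comparable with those of all probes. The direction of a difference does not use the spread. With only the 6 arrays of POKO and PPARγ2KO fitted, 10 of the 87 called probes were still called. Of the 52 probes that rose in POKO, 47 were higher in ob/ob than in WT (39.7% of all probes were), and 34 of them at an adjusted p of at most 0.05 (4.92% of all). Of the 35 that fell, 25 were lower (60.3% of all probes were), and 8 of them at that limit (6.14% of all). The median of the risen probes was 1.50 in POKO against PPARγ2KO and 1.14 in ob/ob against WT, and that of the fallen ones -1.43 and -0.44. Aldh1a3 (2.74), Scg2 (2.64), Il1r2 (2.61), Cyp26b1 (3.03) and Cartpt (2.16) were higher with PPARγ2 intact, and Kcnj12 (-2.30) and Nat8 (-2.05) lower, each at an adjusted p of at most 0.05. Slc5a10 read 7.06, 6.44 and 6.50 in ob/ob and 6.71, 6.87 and 7.25 in WT (-0.27), although it rose by 2.42 in POKO. Nnat fell by 2.30 in POKO but read 6.46, 6.20 and 6.12 in ob/ob and 6.10, 7.04 and 7.57 in WT (-0.64). A test of the difference between the comparisons found 0 probes at an adjusted p of at most 0.05 (0% of 41174, limma, smallest adjusted p 0.118) and 5721 at an unadjusted p below 0.05. For Slc5a10 that difference was 2.69 (adjusted p = 0.213) and for Nnat -1.66 (adjusted p = 0.274). The count of 0 was 685 without WT replicate 3.

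**Figure D5:**
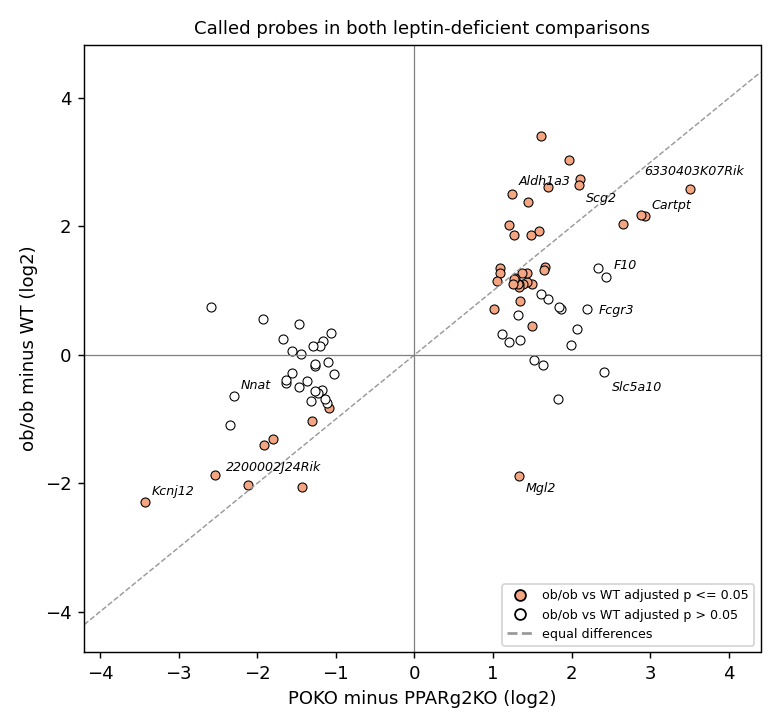
Log2 difference between POKO and PPARγ2KO (x axis) against that between ob/ob and WT (y axis) for the 87 called probes, filled where ob/ob against WT had an adjusted p of at most 0.05, with a dashed line of equal differences. Most risen probes lie in the upper right, and the fallen ones are closer to 0 on the y axis, with medians of 1.14 and -0.44.

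At the stricter limit of an adjusted p of 0.05 without a fold limit, 4 probes passed (0.00971% of all), all higher in POKO. They were Osm (adjusted p = 0.00332), a cytokine of the interleukin 6 family, Cdca5 (adjusted p = 0.0465), which holds sister chromatids together, and 2 probes without a gene name. All 4 were too dim to be well above background in POKO or PPARγ2KO, so no fold is given. With only probes well above background in the test, 0 passed this limit and 246 passed the limits of the main comparison.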

How the data were processed

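Islet RNA of pooled mice was labelled with 1 dye and hybridised to Agilent whole mouse genome arrays of the 4x44K format, and the images were read with Agilent Feature Extraction 10.1.1.1 (per the file headers). The deposited scanner files hold the background-subtracted processed signal of each spot, an intensity, and the value table of the authors holds quantile-normalized log2 values of the same arrays, which served as an alternative. Control spots (1639) and spots marked as outliers (919) were left out, spots of 1 probe were averaged, and log2 processed signals of the 12 arrays were quantile-normalized. limma 3.58.1 in R 4.3.3 was fitted once over the 12 arrays by genotype alone, so the spread comes from all groups, and p-values were adjusted over 41174 probes by the Benjamini-Hochberg method. The script was tested on simulated data. Where no array of the dimmer group measured a probe well above background, the fold is a lower bound, taken against the lowest signal among probes well above background on each array or the signal of the probe itself where that is higher. A gene was represented by its brightest probe. A probe was named where its transcript identifier matched a RefSeq transcript of 1 gene, so that 25097 probes carry a name.

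The genotypes compared, the gene lists (37 in all, 951 genes with a probe) and the rule for named genes were chosen with earlier results of these data known. The rule took the targeted genes and every named gene at an adjusted p of at most 0.05. It took the 15 largest rises and falls among named called genes that were well above background on all arrays of the brighter group. Values that did not overlap between the groups were a further condition for these. In each list it took the called members, the brightest 2, and the member of smallest p in each direction. Other called genes and list members in the text were chosen after their values were seen. Nothing in the labels says that the pools of a group came from separate litters or days, so p-values measure the spread between these arrays. Alternatives were other scaling and background correction, filters on dim probes and outliers, fewer arrays, blocks, weights and leaving out each array. The normexp correction used the median spot signal.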

Additional observations from a re-analysis of the deposited data

How the results depend on the processing

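The number of calls depended on the fit. None of the 87 called probes changed sign in an alternative that tested it. Their values did not overlap between the groups, so leaving out arrays, weights or another estimate of the spread could not change a sign. The 87 called probes became 11 with normexp background correction, 246 with only probes well above background in the test, 27 with only the 6 arrays fitted (also when they alone were normalized), 757 with array weights, 23 with a trended robust variance, 172 without the fold limit and 2 at an adjusted p of 0.05 with it. The 4 probes at an adjusted p of 0.05 became 0 with 75th percentile scaling, with only probes well above background and with the 6 arrays alone, 1 with normexp, 9 with array weights and 2 with the trended robust variance. The 0 probes that differed between the comparisons became 1 with the values of the authors and 1 with the trended robust variance. Leaving out 1 array at a time gave 17 to 1316 called probes, 2 to 656 at an adjusted p of 0.05, and 1 to 685 for the difference between the comparisons. The number of calls was lowest without PPARγ2KO replicate 1 and highest without PPARγ2KO replicate 3, and the difference between the comparisons was highest without WT replicate 3. Of the 87 probes 86 were still called with array weights, 83 with the values of the authors, 53 with 75th percentile scaling, 10 with the 6 arrays alone and 4 without PPARγ2KO replicate 1. The cause was not tested.

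Arrays with the same replicate number shared a slide, but the deviations of POKO and PPARγ2KO arrays from their group means did not correlate (-0.05, -0.02 and -0.05). The numbers were therefore not taken as pairs. WT and ob/ob arrays were not part of these correlations. With the replicate number as a block 43 probes were called and 2 passed an adjusted p of 0.05, and as a random block 134 and 7. The slide as a further block was not run, since it equals the replicate number.

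Among single genes Minar2 lost its call in 15 of 23 alternatives, Csf1r, Cyp26b1 and Lpar2 in 14, and Fcgr3, Nat8 and 2200002J24Rik in 13. Ifit2 and Il1r2 lost it in 12, F10 in 11 and Scg2 in 10. Cartpt and Nnat did so in 8, Slc5a10 in 7, Aldh1a3 in 6 and Kcnj12 in 4. The median half-width of the 95% interval of a log2 difference, without adjustment for the number of probes, was 0.474 for probes well above background. Smaller changes were thus mostly not detectable with 3 arrays a group. Larger ones could miss the adjusted limit too, among them Chgb (1.19) and Ucn3 (-1.83). Fold changes near background are compressed.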
